A study of Neurospora crassa with 10 samples.

Results

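In wild-type Neurospora crassa, 531 of 9729 listed genes lay in 61 unbroken runs of at least 5 neighbouring genes that all belonged to the list of lowest expression. The deposited gene lists were pooled and put in genome order, and every gene of such a run on 1 supercontig was taken as a member. The members were thus chosen by their wild-type expression list, and run number and run size are a description. The study placed a FLAG-tagged histone H3 (hH3-3xFLAG) under the blue-light-induced vvd promoter at his-3 in wild type and in strains lacking dim-2, dim-5, hda-1 or hpo, to follow new histone H3 entering chromatin of germinated conidia. Cultures of every strain were kept in darkness (18 h, 32 °C), had replication blocked with hydroxyurea (100 mM, 3 h) and then received blue light (465 nm, 2 min). Its 10 immunoprecipitation libraries, 2 for each of 5 genotypes, were not analysed here. The values below come from 4 lists that split the genes by their expression in wild type and from 346 domains of H3K9me3 mapped in wild type. These lists carry positions only. The sources used here do not say which wild-type strain or culture conditions lie behind them.

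Neurospora crassa is a filamentous fungus with 7 chromosomes, called linkage groups I to VII. Its constitutive heterochromatin is marked by trimethylation of lysine 9 of histone H3, made by the methyltransferase DIM-5 and bound by the heterochromatin protein HPO, and lies at centromeres, at telomeres and on scattered AT-rich relics of repeats mutated during the sexual cycle. Silent genes of this fungus are also known to lie in groups under another mark, H3K27me3, which is not in the files used here. Members are set beside the 1902 other genes of the lowest list and the 7296 genes of the other lists, which are read from their names as the 25-50%, 50-75% and highest parts of the ranking. Intervals on shares are Wilson 95% intervals and those on medians are order-statistic 95% intervals. They cover counting error only and treat genes as independent, which neighbours are not. The lists carry no replicate values, so no test was made, and depth is unknown.

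Runs were few but held a sizeable part of the lowest list. Members made up 21.8% of its 2433 genes and 5.46% of all listed genes. The lowest list fell into 1386 separate stretches, of which 917 were single genes, 276 had 2 genes, 95 had 3 and 37 had 4. Just past the threshold stood 18 runs of 5 genes and 14 of 6, which together held 174 members. The 19 runs of 10 or more genes held 277 members. The median run had 6 genes and spanned 19.3 kb, with the shortest span at 8.39 kb (NCU05532 to NCU05528, VI) and the longest at 152 kb. All runs together spanned 1619 kb, or 4.00% of the 40.5 Mb between the outermost listed features.

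**Figure D1:**
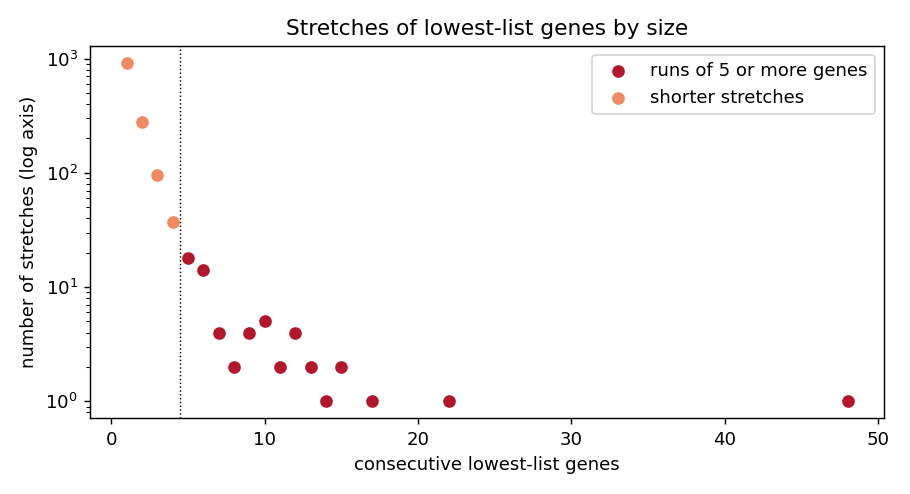
Number of stretches of consecutive lowest-list genes (log axis) against genes per stretch, with runs of 5 or more to the right of the dotted line. Single genes number 917 and runs of 5 genes 18, and the points thin out towards the single run of 48.

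The 10 runs with the most genes lay on linkage groups I, III, IV, VI and VII. The longest, from NCU16701 to NCU08569 on III (4725647 to 4878077, in the numbering of the NC12 assembly as the files use it), had 48 genes. It was flanked by NCU08232 (highest list) and NCU08568 (50-75% list). Its genes were between 350 bp (NCU08247) and 2773 bp (NCU08235) long, with a median of 1003 bp, and the median gap between them was 1295 bp. A domain of 30.3 kb (4827901 to 4858200) cut it unevenly, with 39 genes before the domain, 8 after it and 1, NCU08576, lying completely inside. The run of 22 genes on IV (NCU07627 to NCU07648, 320439 to 398274) stood between NCU07626 and NCU07649 and held a domain of 10.8 kb. The run of 17 genes on VII (NCU06951 to NCU09582, 879701 to 933187) stood between NCU06950 and NCU09581 and held a domain of 20.1 kb.

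The next runs in size differed in domain content. On VI, the 15 genes from NCU04700 to NCU17066 (428256 to 483853), between NCU04699 and NCU04713, held a domain of 12.0 kb. The other run of 15, also on VI (NCU05112 to NCU05096, 3711422 to 3752463, between NCU05113 and NCU05095), had no domain within 29.3 kb. On I, the 14 genes from NCU02873 to NCU02860 (8848772 to 8882350, between NCU02875 and NCU02858) lay 110 kb from the nearest domain. A run of 13 genes on I (NCU08096 to NCU08109, 243324 to 303729) stood between NCU08095 and NCU08110, both of the highest list, and held a domain of 24.3 kb. The 13 genes from NCU06895 to NCU06905 on VII (692576 to 721156, between NCU06894 and NCU06906) held a domain of 1.20 kb. Of the 4 runs of 12 genes, the first in genome order was NCU08077 to NCU08089 on I (188531 to 224874, between NCU08076 and NCU16306), with a domain of 10.2 kb. The next, NCU05668 to NCU05679 on III (421420 to 462154, between acw-3 and NCU05680), held one of 18.3 kb. The remaining runs of 12 genes had no domain within or beside them. They were NCU08200 to NCU10210 on III, 29.4 kb from the nearest domain, and pre-2 to NCU17271 on VII, 23.6 kb from it.

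**Figure D2:**
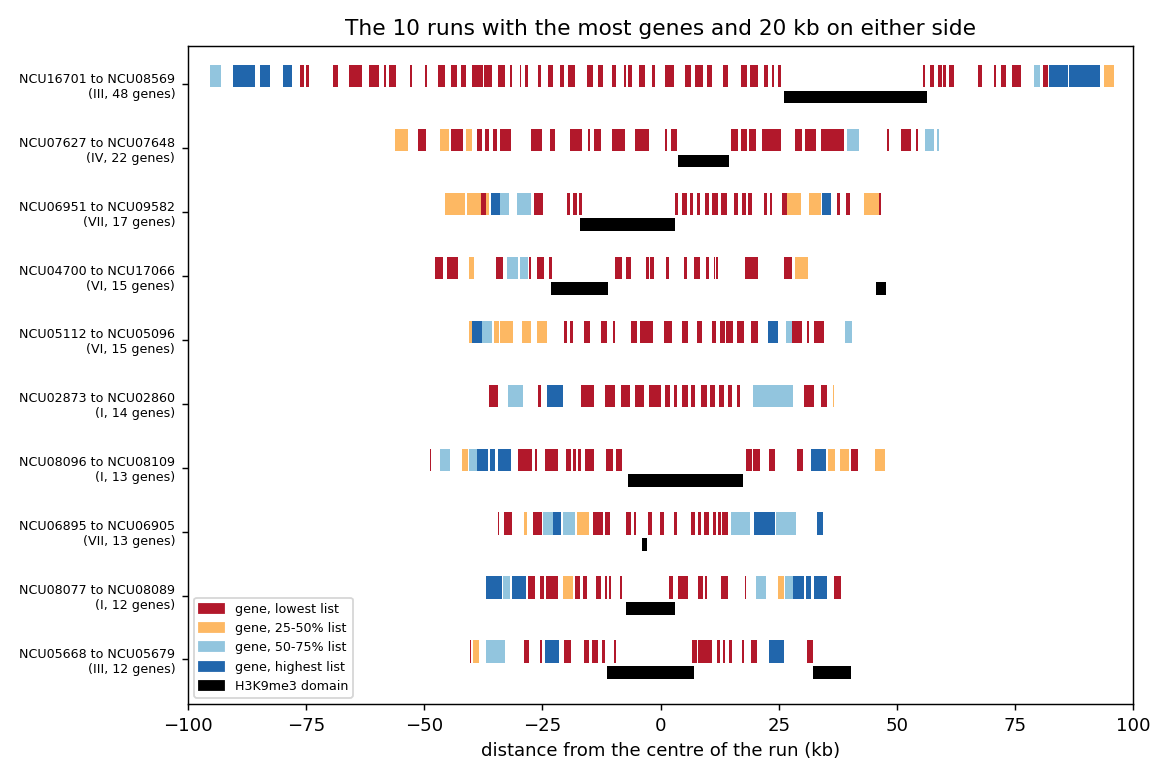
Genes (upper boxes, coloured by expression list) and H3K9me3 domains (black boxes) in the 10 runs with the most genes and 20 kb on either side, as distance in kb from the centre of each run. In 8 of the 10 runs a domain lies between members, and most of these domains fill 1 wide gap. The remaining runs of 12 genes, not drawn, have no domain within or beside them.

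Runs were spread unevenly over the linkage groups. Linkage group VII had 11 runs with 94 members, which was 27.9% of its lowest-list genes, and III had 9 runs with 105 members (32.2%). IV had 11 runs with 95 members (24.3%), V 11 with 78 (20.5%) and VI 7 with 64 (22.7%). On I, the largest linkage group, 7 runs held 63 members (13.3%), and on II 5 runs held 32 (13.1%). The longest run alone, on III, held 9.04% of all members. The share of lowest-list genes among all genes also differed, from 20.1% on I to 32.2% on VII.

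Members lay more often than both other groups within 500 kb of a linkage group end over all genes and on 5 of the 7 linkage groups, though not at the very ends. Within 500 kb of an end lay 254 members, or 47.8% (43.6 to 52.1), against 445 other lowest-list genes, or 23.4% (21.5 to 25.4), and 1039 genes of the other lists, or 14.2% (13.5 to 15.1). Of all listed genes 17.9% lay there. The distance of 500 kb was chosen after the values were seen. Within 200 kb, the distance set first, lay 52 members (9.79%, 7.55 to 12.6), 206 other lowest-list genes (10.8%, 9.51 to 12.3) and 443 genes of the other lists (6.07%, 5.55 to 6.64), with 7.21% of all listed genes. The band between 200 and 500 kb from an end held 202 members (38.0%), 239 other lowest-list genes (12.6%) and 596 genes of the other lists (8.17%), with 10.7% of all listed genes. Without the longest run the members' share in this band was 35.6%.

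The order of these shares was not the same on every linkage group. Within 500 kb of an end lay 39.7% of members on I, 66.7% on III, 53.7% on IV, 67.9% on V and 60.9% on VI. The other lowest-list genes had 11.5%, 27.1%, 14.2%, 23.1% and 33.5% there on the same linkage groups. Genes of the other lists had 8.00%, 12.4%, 14.6%, 11.3% and 19.3% there. On II and VII members had the lowest share of the groups. On II the shares were 15.6% of members, 33.0% of other lowest-list genes and 21.8% of genes of the other lists. On VII they were 11.7%, 34.2% and 24.1%. Only 1 run lay within 100 kb of an end. It was the stretch of 11 genes from NCU17053 to NCU17054 on V (6409845 to 6435860), which contained the last listed gene of the linkage group and so had a flanking gene on 1 side only, NCU07153 of the highest list.

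**Figure D3:**
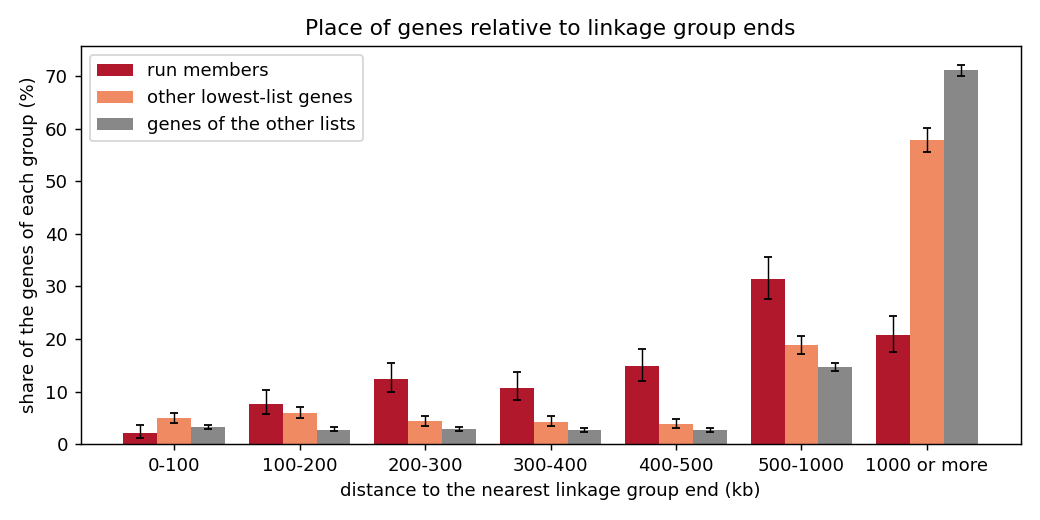
Share (%) of run members, other lowest-list genes and genes of the other lists in bands of distance (kb) from the nearest linkage group end, with Wilson 95% intervals. Members stand above both other groups in each band from 200 to 1000 kb, and at 20.7% against 57.8% and 71.1% beyond 1000 kb.

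Several runs had another run close by. Of 54 pairs of successive runs on 1 linkage group, 12 were separated by 10 genes or fewer and 20 by under 100 kb. None was separated by a single gene. The close pairs formed 10 chains with 22 runs and 193 members. The largest chain, on IV (174775 to 398274, from NCU07592 to NCU07648), had 4 runs with 43 members among 63 genes in 224 kb, and the rest were 6 further lowest-list genes and 14 genes of the other lists. It included the run of 9 genes that ends with acon-3, a gene of asexual spore formation. On I, the runs of 12 and 13 genes named above were 18.4 kb apart, with 8 genes of the other lists between them.

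Beyond the flanking genes, the surroundings of runs still held many lowest-list genes. At each of positions 2 to 10 counted outward from a run, 30.6% to 41.3% of 121 genes were of the lowest list, against 25.01% of all listed genes. These positions can fall inside a neighbouring run, and a gene between close runs can be counted from both. Runs were chosen by expression, so these shares are a description. No protein-coding gene of the names table that is missing from the lists lay inside a run, so no such gene interrupts one. The runs did contain 7 tRNA genes, 4 rRNA genes and 4 ncRNA genes of that table, which are not in the expression lists. That is 4.32 tRNA genes per Mb of run, against 10.1 per Mb elsewhere, and the counts are small.

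The genes next to runs came from all 3 other lists, most often from the 25-50% list. Of 121 flanking genes, 56 were in the 25-50% list (46.3%, 37.6 to 55.1), 32 in the 50-75% list (26.4%, 19.4 to 34.9) and 33 in the highest list (27.3%, 20.1 to 35.8). By the rule a flanking gene is never of the lowest list, so the flanks of shorter stretches are the matching comparison. For stretches of 2 to 4 genes, 814 flanks included 40.4% from the 25-50% list and 29.9% from the highest. Next to single lowest-list genes the shares were 34.6% and 32.7% of 1830 flanks. A run with both flanks in the highest list occurred 8 times, for example NCU05619 to NCU05609 on VI, and one with both in the 25-50% list 17 times, for example pre-2 to NCU17271 on VII. The flanking genes had a median length of 2401 bp (2169 to 2634), against 2427 bp (2397 to 2462) in the remaining genes of the other lists.

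Members were short genes. Their median interval was 1115 bp (1051 to 1178), against 1253 bp (1218 to 1296) in the other lowest-list genes and 2426.5 bp (2397 to 2461) in the other lists. Of the members 116 (21.8%) were 700 bp or shorter, against 322 other lowest-list genes (16.9%) and 41 genes of the other lists (0.562%), and 4.92% of all listed genes. The shortest member was NCU08089 on I with 213 bp and the longest NCU07648 on IV with 4967 bp. Within linkage groups, the median of members was below that of the other lowest-list genes on 6 of 7, and on IV it was 1434 bp against 1317.5 bp. Whether the ranking was corrected for gene length is not stated, so length may be part of it. Locus tags of NCU10000 and above were carried by 77 members (14.5%, 11.8 to 17.8), 355 other lowest-list genes (18.7%, 17.0 to 20.5) and 522 genes of the other lists (7.15%, 6.59 to 7.77), with 9.81% of all listed genes.

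By median, genes within runs had wider gaps than genes of the other lists and narrower ones than shorter lowest-list stretches. They almost never overlapped. The median of 470 gaps between neighbouring members was 1113.5 bp (1007 to 1237), against 1346 bp (1259 to 1444) within lowest-list stretches of 2 to 4 genes and 431 bp (412 to 449) between genes of the other lists. Only 2 pairs of members overlapped (0.426%), against 8 pairs in stretches of 2 to 4 (1.39%) and 875 pairs of the other lists (14.8%). The interquartile range was 665 to 1845.75 bp within runs and 155 to 1152 bp between genes of the other lists. At the edge of a run the median gap to the flanking gene was 965 bp (728 to 1230). Runs held 32.8 genes per 100 kb of span, against 24.05 over all linkage groups. A run span starts and ends on a gene, whereas whole linkage groups include every wide gap. Member genes filled 41.3% of the run spans. Single runs had median gaps from 368.5 bp (NCU05059 to NCU05055, VI) to 3262.5 bp (NCU07752 to NCU07748, V).

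**Figure D4:**
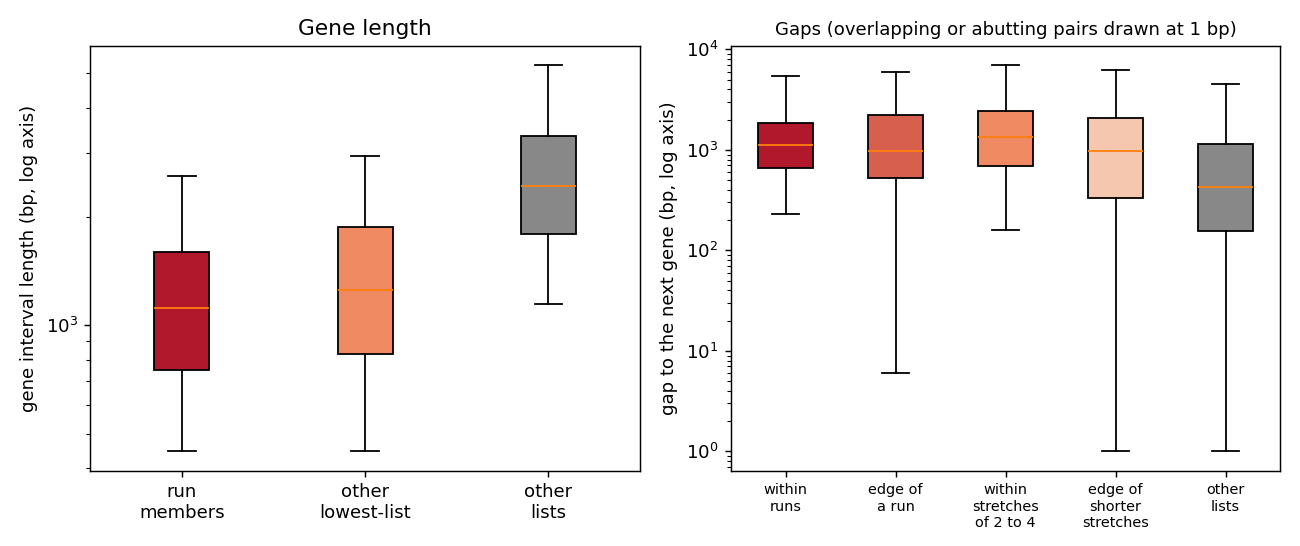
Gene interval length and gap to the next gene (bp, log axes), with boxes from the 25th to the 75th percentile, a line at the median and whiskers from the 5th to the 95th percentile. Run members have the lowest median length of 1115 bp, and gaps within runs have a median of 1113.5 bp against 431 bp between genes of the other lists.

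H3K9me3 domains lay within 19 of the 61 runs and, in another 5, in the gap between the run and a flanking gene, while 37 runs had neither. These 24 runs are 39.3% of all runs (28.1 to 51.9). For stretches of 2 to 4 genes the share was 12.3% of 408 (9.42 to 15.8) and for single genes 6.76% of 917 (5.31 to 8.57). Span differed as well: its median was 19.3 kb for runs, 5.34 kb for stretches of 2 to 4 and 1.26 kb for single genes, and its part in these shares was not tested. Per Mb of span, 14.8 runs, 17.3 stretches of 2 to 4 and 46.5 single genes had a domain within or beside them. These rates count domains in the gaps to flanking genes, but the spans leave those gaps out. They therefore do not compare the classes. A domain lay beside only in 5 runs, 18 stretches of 2 to 4 and 42 single genes. It lay within 31.1% of runs, 7.84% of stretches of 2 to 4 and 2.18% of single genes. A domain counted as within if it shared at least 1 bp with the span. In the run NCU09394 to NCU09389 on VII, this was only 58 bp of a domain of 11.7 kb. Among runs, a domain lay within or beside 6 of 18 with 5 genes, 4 of 14 with 6, 3 of 10 with 7 to 9 and 11 of 19 with 10 or more. Domains made up 19.9% of the run spans and 17.6% of the spans of stretches of 2 to 4. Counted by gap, 23 of 470 gaps within runs held domain sequence (4.89%, 3.28 to 7.24), against 29 of 577 gaps in stretches of 2 to 4 (5.03%, 3.52 to 7.12) and 175 of 5910 gaps between genes of the other lists (2.96%, 2.56 to 3.42). The first of these intervals overlaps each of the other 2.

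Where a run held a domain, the domain usually filled its widest gap. In 16 of the 61 runs the widest gap contained a domain, which took up 88.9% to 100% of it. These gaps were 7.73 to 41.2 kb wide. In the other 45 runs the widest gap was 1.27 to 7.49 kb. Of the 26 gaps within runs wider than 5 kb, 17 held domain sequence, against 22 of 49 such gaps in stretches of 2 to 4 and 240 of 536 over all pairs of neighbouring genes. Without domain gaps, the median gap within runs was 1060 bp (980 to 1185), against 1302 bp (1109 to 1394) within stretches of 2 to 4 and 407 bp (387 to 429) between genes of the other lists. Here the intervals of runs and of stretches of 2 to 4 overlap.

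The domains at runs were of moderate size. The 24 domains within runs, of which 20 lay completely between the outer ends of their run, had a median of 12.8 kb and reached from 0.600 to 36.6 kb. The 7 domains beside runs had a median of 6.90 kb, and the 315 remaining domains had a median of 9.00 kb and a maximum of 349.2 kb. The longest of those within runs, 345601 to 382200 on III, parted the run of 6 genes that begins with stk-56 and also holds stk-35, both serine/threonine kinase genes. On IV, the 6 genes from NCU08803 to NCU09939 (5198836 to 5250952, between NCU08804 and gh76-5) had 39.0 kb of domain within their span. Domain sequence filled 94.2% of a single gap of 41.2 kb there, and 2 of the genes overlapped a domain. Some runs lay far from any domain: 9 of 61 were more than 100 kb away. So were 60 of 408 stretches of 2 to 4 and 178 of 917 single lowest-list genes. The farthest run was NCU02927 to NCU02921 on I, at 304 kb, which includes fbm-1.

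Few members were themselves reached by a domain. Of 531 members, 21 overlapped a domain by at least 1 bp (3.95%, 2.60 to 5.97), where 2.17% of all listed genes did. The counts were 44 among the other lowest-list genes (2.31%, 1.73 to 3.09) and 146 in the other lists (2.00%, 1.70 to 2.35), and the interval of members overlaps that of the other lowest-list genes. The 21 genes came from 14 runs, and 5 of them from 1 run on IV, NCU05179 to NCU05171 (5848609 to 5888184). In that run of 8 genes, 4 domains lay between or over the genes, and NCU05171 had 61.8% of its length covered and NCU05179 37.8%. Without it, a setting added after the values were seen, 16 of 523 members overlapped a domain (3.06%).

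At least 50% of the gene was covered in 8 members (1.51%), against 21 other lowest-list genes (1.10%), 23 genes of the other lists (0.315%) and 0.534% of all listed genes. The member with the most domain sequence was NCU07249 on V (6081633 to 6083258), with 1168 bp or 71.8% of its length. NCU08083 on I (208395 to 209343, 949 bp), NCU17054 on V (6435237 to 6435860, 624 bp), NCU07228 on V (6191093 to 6191712, 620 bp), NCU05672 on III (431890 to 432362, 473 bp) and NCU08576 on III (4857482 to 4857922, 441 bp) were covered completely. NCU06955 on VII (889200 to 889867) had 367 bp or 54.9% covered. NCU07249 is 1626 bp long, and the other 7 of these genes are 441 to 949 bp long.

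The median distance of members to a domain was the smallest of the 3 groups, with an interval that overlaps that of the other lowest-list genes. Their median distance to the nearest domain was 28.4 kb (22.8 to 32.5), against 33.9 kb (31.4 to 37.0) for the other lowest-list genes and 41.2 kb (39.7 to 42.6) for the other lists. Outside domains but under 5 kb from one lay 86 members (16.2%, 13.3 to 19.6), 198 other lowest-list genes (10.4%, 9.12 to 11.9) and 655 genes of the other lists (8.98%, 8.34 to 9.66), with 9.65% of all listed genes. For the genes flanking runs, which are never of the lowest list, this median was 27.7 kb (21.8 to 40.3), against 41.4 kb (39.9 to 43.0) in the remaining genes of the other lists. The 2 intervals overlap. Flanking genes lie next to members, so their distance is not a separate observation. Linkage groups differed in the median distance of members. On VII the median was 17.0 kb in members against 30.8 kb in the other lowest-list genes, and on V 24.2 kb against 31.8 kb. The 2 values were within 5 kb of each other on II, III and IV. On I the order was the opposite, with 86.0 kb in members against 50.5 kb in the other lowest-list genes, and on VI likewise with 36.7 kb against 28.7 kb.

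**Figure D5:**
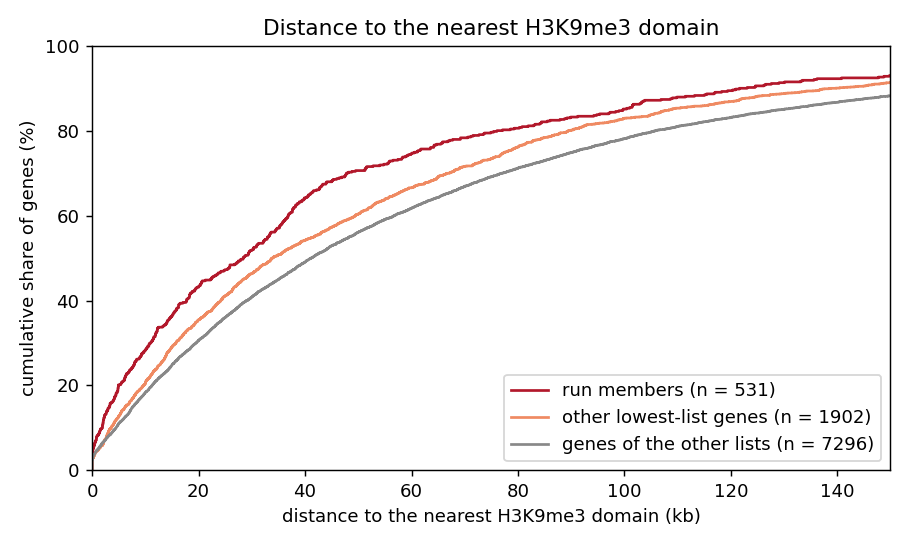
Cumulative share (%) of run members, other lowest-list genes and genes of the other lists against distance to the nearest H3K9me3 domain, drawn up to 150 kb. The medians are 28.4, 33.9 and 41.2 kb.

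Runs near a linkage group end held domains more often than runs farther in. Within 500 kb of an end, 12 of 28 runs held a domain and 3 had one beside them only, against 7 and 2 of the 33 runs farther in. By gap, 17 of 228 gaps within runs held domain sequence within 500 kb of an end (7.46%, 4.71 to 11.6), and 6 of 242 farther in (2.48%, 1.14 to 5.30). In stretches of 2 to 4 lowest-list genes the counts in the same zones were 11 of 177 (6.21%, 3.51 to 10.8) and 18 of 400 (4.5%, 2.87 to 7.0). Gaps between genes of the other lists had 4.15% (2.94 to 5.83) and 2.79% (2.37 to 3.27). At the edge of a run the shares were 9.43% (4.10 to 20.3) and 4.41% (1.51 to 12.2). At the edge of shorter lowest-list stretches the order was the opposite, with 3.38% (2.15 to 5.27) and 3.65% (2.93 to 4.54). In each of these classes the intervals of the zones overlap. The part of distance from the end in the nearness of members to domains was not tested.

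Named genes were rare among members. Of the members 11 (2.07%) had a symbol other than a locus tag, against 58 other lowest-list genes (3.05%) and 1049 genes of the other lists (14.4%), with 11.5% of all listed genes. The list for plant cell wall breakdown had 83 genes, most of them named by glycoside hydrolase family. It takes every such symbol, so many of its genes need not act on plant cell walls. Of the 83, 24 were in the lowest list, which makes up 25.01% of all listed genes. Members were 5, which is 6.02% of the 83 beside 5.46% members among all listed genes. The genes of this list all carry a symbol. Of the 1118 listed genes with a symbol, 11 were members and 58 were other lowest-list genes. The shares over all listed genes are therefore not a matched comparison. The members were gh7-1 (VI, 3894456 to 3895844), gh7-3 (VI, 2137956 to 2139189), gh7-4 (VI, 3732709 to 3734273), gh11-2 (V, 6198659 to 6199980) and gh61-4 (V, 2769232 to 2770004). Family GH7 holds cellulases, GH11 xylanases and GH61 oxidative cellulose-cleaving enzymes. Each of the 3 GH7 members lay in a different run on VI, of 5, 6 and 15 genes. The other GH7 genes in the files were gh7-2 in the 25-50% list and the cellobiohydrolase gene cbh-1 in the 50-75% list, both on IV.

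Among the few sexual-cycle genes in the chosen lists, most were of the lowest list. Of 10 genes of meiosis and sexual development, 7 were in the lowest list (sad-1, sad-2, sms-2, spo11, asd-3, poi-2 and per-1) and none was a member, since each stood alone or in a stretch of 2 or 3. sad-1, sad-2 and sms-2 act in silencing of unpaired DNA in meiosis, and spo11 in the start of recombination. Of 5 genes of mating type and pheromone response, 3 were in the lowest list and 1 was a member, the pheromone receptor gene pre-2 (VII, 3727404 to 3729156), which begins a run of 12 genes 23.6 kb from the nearest domain. The lowest list makes up 25.01% of all listed genes and members 5.46%. Of the 1118 genes with a symbol, 11 were members and 58 were other lowest-list genes. Nothing is read from the small counts of these lists. Of 10 conidiation genes, acon-3 (IV, 271905 to 274263) was a member, con-13 was another lowest-list gene and 5 were in the highest. Of 5 genes of the quinic acid cluster, qa-3 and qa-4 formed a lowest-list stretch of 2 and none was a member. No gene of the lists for heterokaryon incompatibility (6 genes), secondary metabolism (6), transport (3), RNA silencing (5) or heterochromatin formation (8) lay in a run. The list for secondary metabolism takes pks, nps and nrps symbols only. The member tnr-1 (VII, 1264603 to 1266767) was in none of the lists. In runs lay 5.46% of all listed genes and 11 of the 1118 genes with a symbol. A count of 0 in lists this small says nothing about these families.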

How the data were processed

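Per the file names, the authors split gene intervals into 4 lists by normalized expression in wild type and called H3K9me3 domains with SICER. The tools in the submitters' processing notes are deepTools, SICER, HOMER and Bowtie2, without settings. The columns used are positions in bp, an other unit than expression: the deposited lists hold no expression value or score. Genes were read as counting from 0, sorted by supercontig, start and end, and named by position from a RefSeq table of assembly NC12. Of 9729 intervals 9490 matched, 238 matched mirrored (linkage group VI, 1851685 to 2769626, inverted in the files and kept so) and 1 stayed unnamed. All 531 members were named. In that segment lay 1 run of 6 genes.

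Distances count the bases between features, and ends are the outermost listed features. The members and gene lists were chosen with earlier results of these data known. Named genes are the ends and flanks of the 10 runs with the most genes (ties in genome order), members covered by at least 50%, and members of the gene lists, and others were chosen after their values were seen. Lists by product description, protein comparisons and sequences were not used here. On 20 simulated sets of planted runs and domains the functions recovered every run, and overlap and distance of all 28140 genes checked. Python 3.11.15, pandas 2.3.3, NumPy 2.4.6 and SciPy 1.17.1 were used.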

Additional observations from a re-analysis of the deposited data

How the results depend on the processing

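Of 166 alternative values for 11 results, 151 stayed within the interval of the reported value (for counts, within 1.5 times). Many settings keep most of the same genes. Leaving out 1 linkage group kept at least 426 members and 50 runs, so these counts could not leave their range. The tally therefore does not measure how firm the results are. The number of runs, 61, was 98 with a minimum of 4 genes, 25 with a minimum of 8 and 106 when runs were joined across 1 gene of another list. The number of members, 531, was 329 with a minimum of 8 genes and 904 when runs were joined. The share of members overlapping a domain was 1.51% at 50% coverage and 8.10% with genes widened by 1 kb on both sides, and otherwise 2.98% to 4.27%. Median distance to a domain was 32.9 kb both without linkage group VII and with domains of 3 kb or more alone, and otherwise 23.7 to 30.2 kb. The median gap within runs was 1269 bp with locus tags under NCU10000 alone. Flanking genes of the highest list were 36.7% with a minimum of 8 genes. The share of members near an end was 2.07% at 100 kb. At 500 kb, a distance added after the data were seen, it was 43.2% without III, 55.6% without VII and 52.1% with locus tags under NCU10000 alone. The share of runs with a domain within or beside them stayed between 31.6% and 48.0% in all 17 alternatives, and median member length between 1068 and 1166 bp in all 14. The cause of these moves was not tested, beyond those that redefine the runs or the threshold. No paired analysis was possible because the lists carry no replicates. The lists give no depth or signal, so precision is limited by the number of genes.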
